A study of Sus scrofa with 6 samples.

Results

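The genes described here encode enzymes that write or remove chemical marks on histones and DNA, and proteins that read them. They were taken as a fixed list of 55 gene symbols and matched by exact symbol to the count tables, where 54 of the 55 had a row among 17201 genes. BRD3 is not analysed here. The tissue was prefrontal cortex of pigs (Sus scrofa) aged 3 months, sequenced as bulk RNA with 1 library per animal. Animals 391, 392 and 393 had been given valproic acid (VPA) at 75 mg/kg, which the series places in early gestation, and animals 401, 402 and 408 were untreated controls. The labels give no strain, sex or litter and no genetic alteration, and each group has 3 animals (n = 3 throughout). VPA, an anticonvulsant, is also an inhibitor of histone deacetylases, and the series offers the exposed pigs as a model of autism. The comparison asks which of these genes differed between exposed and control cortex, months after the exposure.

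DNA in the nucleus is wrapped around histones, and acetyl and methyl groups on histone tails mark stretches of chromatin as open or closed. Acetyltransferases add acetyl groups, which deacetylases such as the NAD-dependent sirtuins take off. Histone methyltransferases and demethylases set and erase methyl groups on named lysines: on histone H3, lysine 4 (H3K4) and lysine 36 (H3K36) methylation are tied to transcribed genes, lysine 9 (H3K9) and lysine 27 (H3K27) methylation to silent ones. On DNA itself, DNMT enzymes methylate cytosine, TET dioxygenases oxidise methylcytosine, and methyl-CpG-binding domain (MBD) proteins include readers of the methyl mark. In neurons, DNA methylation continues to be laid down after birth, mainly by DNMT3A.

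Libraries held 16285517 to 17989032 counts, so 1 CPM (counts scaled to the library total, used here to compare one gene between libraries) stood for 16.3 to 18 reads, and 16127 to 16236 genes were detected. Of the 54 genes, 49 had at least 100 counts in every library. The other 5 were TET1, DNMT3B, SIRT4, SUV39H2 and EZH2, and the lowest count was 14, for DNMT3B. Markers of cortical neurons, astrocytes, oligodendrocytes, microglia and endothelial cells were present in all libraries. A set of 7 markers of striatal projection neurons, cells of a region under the cortex, summed to 148, 164 and 498 CPM in VPA 391, 392 and 393, with controls between 111 and 122. VPA 393 therefore stood apart, and the genes whose fold change moved most without it are given with their values below. The Y-linked gene EIF1AY had counts of 450 to 548 in 4 libraries, 0 in VPA 392 and 2 in control 401.

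Expression lay near the middle of all tested genes. The median was 6.28 FPKM (counts scaled to the library total and the length of the gene model, the unit in which different genes are compared), against 6.51 FPKM over all 14373 tested genes. Of the 54, 19 lay at 10 FPKM or more, 33 between 1 and 10 FPKM, and 2, TET1 and DNMT3B, under 1 FPKM. Their gene models were long, with a median of 6148.5 bases against 3755 bases over all tested genes. KMT2D had the longest at 21406 bases and SIRT5 the shortest at 941 bases, and each FPKM value rests on that length. The highest level belonged to SIRT2, at 128 ± 11.2 FPKM (SD over all 6 libraries), followed by MBD3 at 49.0 ± 2.20 FPKM and SIRT5 at 35 ± 5.63 FPKM.

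**Figure D1:**
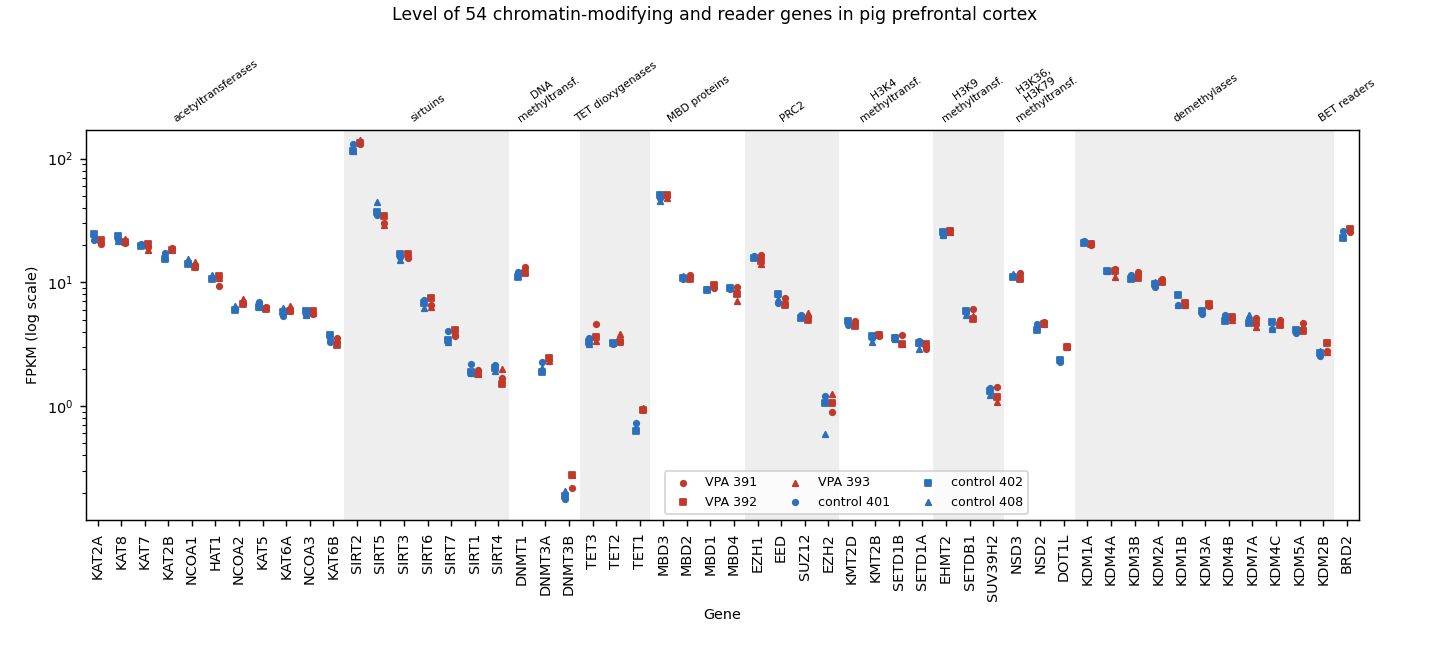
Level of each of the 54 genes in FPKM (log axis), grouped by role, with 1 point per library: blue for controls, red for VPA. Levels run from 0.224 FPKM for DNMT3B to 128 FPKM for SIRT2, and within most genes the 6 libraries lie close together.

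Between VPA and control cortex, none of the 54 genes passed an adjusted p of 0.05 (edgeR's quasi-likelihood test, Benjamini-Hochberg over all tested genes), where 52 genes, or 0.362% of all 14373 tested, did. DESeq2 gave an adjusted p to 51 of the 54 and called none of them, while it called 3.64% of all genes to which it gave one. In DESeq2, 7 of the 54 (13%, background 11%) had an unadjusted p under 0.05. At an unadjusted p under 0.05 stood 9 of the 54 (16.7%), against 16.2% of all tested genes, so the share was near the background. DOT1L, KAT2B, TET1, SIRT2, KDM3A, NCOA2 and DNMT3A were the 7 with higher values in VPA (13%, background 8.69%), and SIRT5 and KAT2A the 2 with lower values (3.7%, background 7.47%). In 13 of the 54 (24.1%) the 2 groups did not overlap in CPM, against 21.2% of all tested genes. They were the 9 just named and also MBD1, DNMT3B, TET2 and KMT2B, which makes 11 higher in VPA (20.4%, background 12.1%) and 2 lower (3.7%, background 9.07%).

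Differences were small and fairly tightly measured. The median log2 fold change (VPA over control) was 0.01 for the 54 and 0.0018 for all tested genes, and 29 of the 54 were positive (53.7%, background 50.5%). The median size regardless of sign was 0.08 against 0.11 for all tested genes. DOT1L, SIRT5, TET1 and DNMT3B were the 4 that exceeded 1.25-fold either way in the edgeR fit, which is 7.41% of the 54 against 12.9% of all tested genes. For 50 of the 54 (92.6%, background 75.4%) the 95% interval of the fold change lay within 1.5-fold either way. The other 4 were TET1, DNMT3B, SIRT4 and EZH2, which are among the 5 with the fewest counts and whose fold changes are known least precisely.

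**Figure D2:**
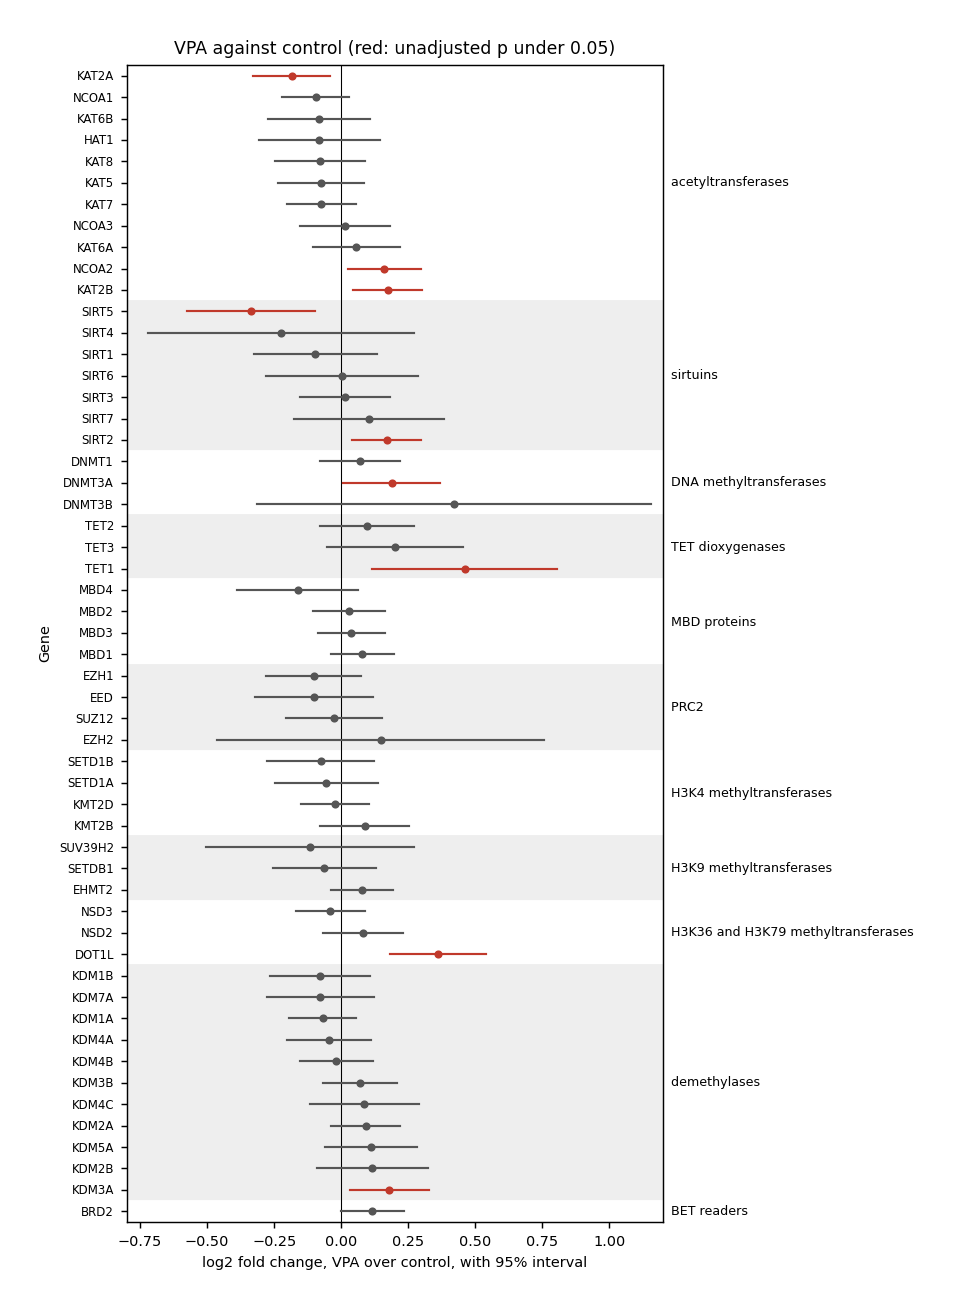
Log2 fold change of each gene, VPA over control, with its 95% interval from the edgeR fit, grouped by role. The 9 genes in red have an unadjusted p under 0.05, none passes after adjustment, and DNMT3B and EZH2 have the widest intervals.

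Among the methyltransferases of H3K36 and H3K79, DOT1L had the lowest p of all 54 genes. DOT1L is the enzyme that methylates lysine 79 of histone H3, in the body of transcribed genes. It stood at 24.3, 23.6 and 23.6 CPM in VPA 391, 392 and 393, and at 18.1, 18.6 and 18.5 CPM in controls 401, 402 and 408. All 3 exposed animals lay above all controls, and within each group the values were nearly equal. At 313 to 425 counts, counting noise alone would be expected to spread them more, so this closeness does not show that the animals are alike. Its log2 fold change was 0.36 ± 0.081 (SE; 1.14-fold to 1.45-fold at 95%), with an unadjusted p of 0.00104 and an adjusted p of 0.0755. With each library left out in turn it ran from 0.34 to 0.38, and its unadjusted p stayed at or under 0.00656. NSD2 and NSD3, which methylate H3K36, had log2 fold changes of 0.08 and -0.04, and in both the groups overlapped.

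In the DNA methylation machinery all 6 writers and oxidisers had positive log2 fold changes, as 50.5% of all tested genes did. In 4 of the 6 the groups did not overlap and VPA was higher (background 12.1%), though by narrow gaps in TET2, DNMT3A and DNMT3B, as given below. TET1, one of the dioxygenases that oxidise methylcytosine, stood at 6.04, 6.08 and 6.23 CPM in the VPA animals and at 4.73, 4.09 and 4.38 CPM in the controls (401, 402 and 408). The exposed animals lay within 0.188 CPM of each other, and 1.31 CPM parted the lowest of them from the highest control. The exposed values rest on 101, 99 and 112 counts. Counting noise alone would be expected to spread such counts more, so their closeness does not show that the animals are alike. Its log2 fold change was 0.46 ± 0.156 (adjusted p = 0.183), the largest of the 54, and its 95% interval reached from 1.08-fold to 1.75-fold. TET1 made up 11.4 ± 0.784% of the summed FPKM of the 3 TET genes in VPA and 9.37 ± 0.508% in controls, without overlap. This share, like the other shares of a family given below, was chosen after values were seen and has no test.

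TET3, the most abundant of the 3 at 3.58 FPKM, was uneven within the VPA group. It had 56.9, 44.5 and 41.3 CPM in VPA 391, 392 and 393, against 39.1 to 43.6 CPM in controls (adjusted p = 0.429). VPA 391 was thus alone in its high value, and the log2 fold change of 0.20 became 0.04 on leaving it out. TET2 lay at 35, 34.9 and 40.6 CPM in VPA 391, 392 and 393 and at 33.8 to 34.5 CPM in controls, where the groups did not overlap but were only 0.415 CPM apart (log2 fold change 0.10, and 0.026 without VPA 393).

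Of the methyltransferases, DNMT1, which copies methylation onto new DNA strands, was the most abundant at 12.1 FPKM and made up 83.9 ± 0.573% of the family's summed FPKM in controls and 82.5 ± 1.2% in VPA. It had 79.7, 71.3 and 71.8 CPM in VPA 391, 392 and 393 and 72.4, 66.5 and 71.5 CPM in controls 401, 402 and 408, and the groups overlapped (log2 fold change 0.07 ± 0.067, adjusted p = 0.659). Without VPA 391, its highest library, the log2 fold change was 0.0036. DNMT3A, the de novo methyltransferase of neurons, stood at 40.4, 41.8 and 39.4 CPM in VPA and at 38.6, 32.3 and 34.8 CPM in controls. All exposed animals lay above all controls, control 401 coming within 0.730 CPM of VPA 393. Its log2 fold change was 0.19 ± 0.081 (unadjusted p = 0.0427, adjusted p = 0.290), and the unadjusted p was 0.186 without control 402.

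DNMT3B, the other de novo enzyme, was the lowest of the 54 genes at 0.224 ± 0.0442 FPKM. It had 0.957, 1.23 and 1.22 CPM in VPA 391, 392 and 393 and 0.778, 0.830 and 0.910 CPM in controls. These values rest on 14 to 22 counts per library. VPA 391 and control 408 both had 16 counts, so the gap of 0.0466 CPM between the groups came from the library totals alone. The groups did not overlap, yet the 95% interval of the fold change spanned 0.804 to 2.23 (adjusted p = 0.577).

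The MBD proteins differed little. MBD3, a subunit of the NuRD remodelling complex that binds methylated DNA weakly, had 121 to 127 CPM in VPA and 114 to 128 CPM in controls. MBD1, a reader of methylated CpG, had 78.7 to 84.1 CPM in VPA and 76.6 to 77.6 CPM in controls, apart but with a log2 fold change of only 0.08 (adjusted p = 0.503). MBD2, also a methyl-CpG reader, had a log2 fold change of 0.03. MBD4, a DNA repair glycosylase, had 32.6, 28.6 and 24.9 CPM in VPA 391, 392 and 393, with controls at 31.3 to 32.2. The controls agreed closely in MBD4 while 2 exposed animals lay below them and 1 above (adjusted p = 0.468). MBD4 had a log2 fold change of -0.16, which became -0.06 on leaving out VPA 393, its lowest library.

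**Figure D3:**
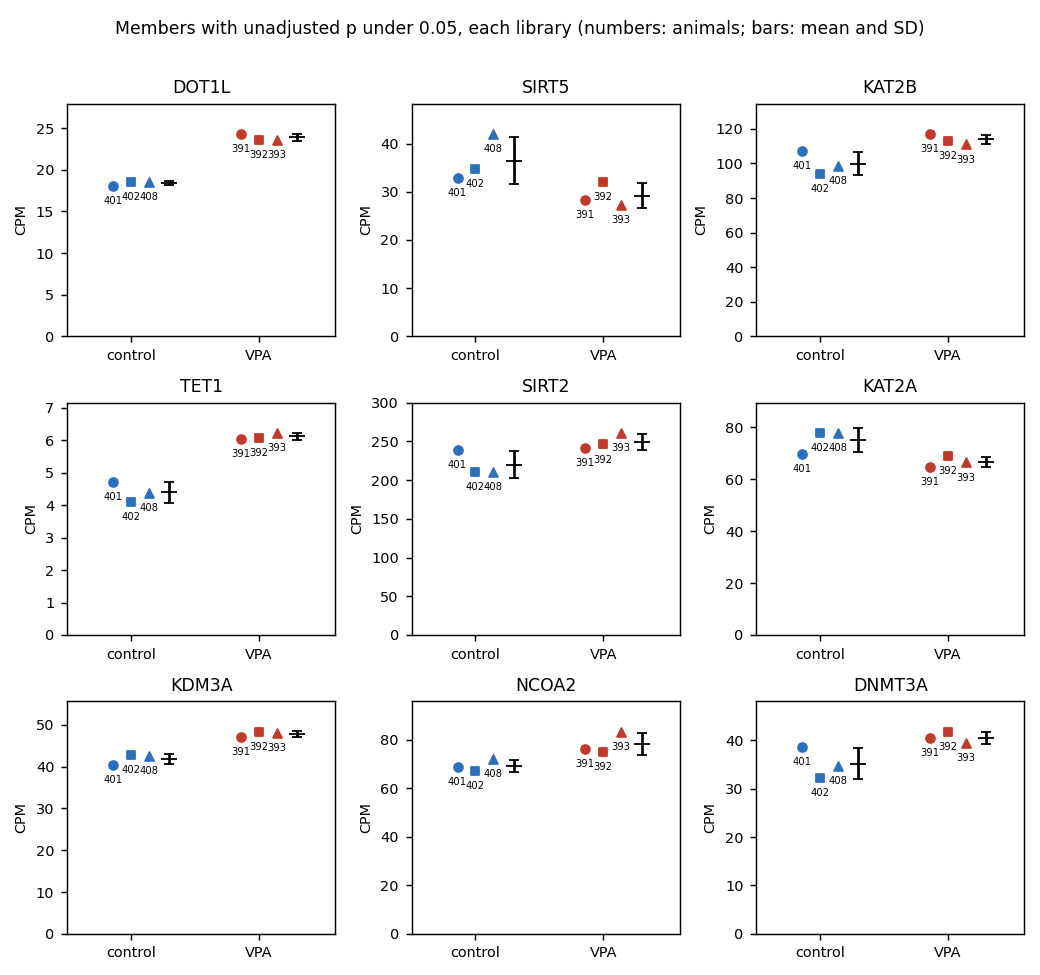
CPM in each library (linear axes from 0, points numbered by animal, bars showing mean and SD) for the 9 genes with an unadjusted p under 0.05. DOT1L and TET1 show the widest gaps between groups relative to their spread, a spread narrower than counting noise alone would be expected to give. SIRT2 of control 401 lies just below VPA 391.

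Acetyltransferases leaned slightly negative, with 4 of 11 positive (background 50.5%) and a median log2 fold change of -0.08. The paralogs KAT2A (GCN5) and KAT2B (PCAF), alternative catalytic subunits of the SAGA and ATAC coactivator complexes, differed in opposite directions. KAT2B stood at 117, 113 and 111 CPM in VPA and at 107, 93.8 and 98.7 CPM in controls (log2 fold change 0.17 ± 0.058, unadjusted p = 0.0130, adjusted p = 0.180). KAT2A stood at 64.6, 68.8 and 66.4 CPM in VPA and at 69.8, 77.8 and 77.6 CPM in controls (-0.18 ± 0.065, unadjusted p = 0.0162, adjusted p = 0.196). In both genes the groups did not overlap, and control 401 was the control closest to the exposed animals. KAT2B made up 48.2, 45.8 and 46.4% of the pair's summed FPKM in VPA 391, 392 and 393, and 44.1, 38.4 and 39.6% in controls 401, 402 and 408.

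NCOA2, a nuclear receptor coactivator of the p160 family, had 76.1, 75.1 and 83.3 CPM in VPA 391, 392 and 393 and 68.9, 67.1 and 72.0 CPM in controls. The log2 fold change was 0.16 ± 0.061 (adjusted p = 0.233), and 0.12 without VPA 393, its highest library (unadjusted p = 0.10). Its relatives NCOA1 and NCOA3 had log2 fold changes of -0.10 and 0.01, with overlapping groups. The MYST-family enzymes were as close: -0.08 for KAT5 (TIP60), 0.06 for KAT6A, -0.08 for KAT6B, -0.07 for KAT7 and -0.08 for KAT8. HAT1, which acetylates newly made histone H4, had 15.1 to 18.4 CPM in VPA and 17.3 to 18.7 CPM in controls. In none of these 8 genes did the groups separate.

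Sirtuins held both the highest level and the most negative fold change of the 54 genes. SIRT2, a mainly cytoplasmic tubulin and histone deacetylase that in brain is abundant in oligodendrocytes, the myelin-forming cells, stood at 241, 246 and 261 CPM in VPA 391, 392 and 393. In controls 401, 402 and 408 it stood at 239, 210 and 210 CPM, so control 401 lay close to the exposed animals and the other 2 well below. The log2 fold change was 0.17 ± 0.058 (unadjusted p = 0.0144, adjusted p = 0.186), and 0.14 without VPA 393 (unadjusted p = 0.0511). Of 12 oligodendrocyte markers, 11 had positive log2 fold changes (median 0.34, against 0.0018 and 50.5% positive over all tested genes). None passed the adjusted threshold and none was at 0 in any library. Their summed level was 19200, 19200 and 17000 CPM in VPA 391, 392 and 393, and 17600, 13100 and 14700 CPM in controls 401, 402 and 408. Control 401 was again the highest control. VPA 393, the highest library in SIRT2, was the lowest VPA library in these markers and lay below control 401. Markers of other cell types differed as well. Positive were 6 of 7 for astrocytes (median 0.18) and 6 of 7 for oligodendrocyte precursors (0.23), but 0 of 4 for all neurons (-0.13) and 1 of 6 for glutamatergic neurons (-0.16). Neuronal lists were not uniform: 4 of 6 were positive for GABAergic neurons (0.10) and 7 of 7 for striatal projection neurons (1.19), whose sum was far highest in VPA 393. Microglia had 6 of 8 positive (0.09), endothelial cells 4 of 6 (0.03), choroid plexus 2 of 5 (-0.06) and red blood cells 3 of 3 (0.91). Of all these markers only TTR, of choroid plexus, passed the adjusted threshold in edgeR (log2 fold change 2.55, adjusted p = 0.0413). The part of these markers in the SIRT2 difference, or in that of any other gene here, was not tested. In bulk tissue, fewer cells of a type and less RNA per cell cannot be told apart.

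SIRT5, a mitochondrial enzyme that removes succinyl and malonyl groups, stood at 28.3, 32.1 and 27.2 CPM in VPA 391, 392 and 393 and at 32.9, 34.8 and 42.0 CPM in controls 401, 402 and 408. The groups did not overlap, though VPA 392 and control 401 were 0.739 CPM apart, and control 408 stood highest. Its log2 fold change was -0.34 ± 0.107 (unadjusted p = 0.0102, adjusted p = 0.163), and -0.22 without control 408 (unadjusted p = 0.0518). SIRT2 accounted for 68.8 ± 1.78% of the summed sirtuin FPKM in VPA and 63.4 ± 2.67% in controls, and SIRT5 for 15.7 ± 1.34% and 20.6 ± 3.07%. Neither share overlapped between groups, but both are parts of the same sum and largely restate the values of the 2 genes.

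The other sirtuins showed no separation. SIRT1, the nuclear deacetylase best known for metabolic control, had 15.5, 14.6 and 14.6 CPM in VPA and 17.5, 15 and 14.8 CPM in controls (log2 fold change -0.10 ± 0.104, adjusted p = 0.698). Only control 401 departed from an otherwise even set of SIRT1 values. The mitochondrial SIRT3 and SIRT4 had log2 fold changes of 0.01 and -0.23. The nuclear SIRT6 and the nucleolar SIRT7 had 0.0033 and 0.10. SIRT4 was scarce, at 2.27 to 3.17 CPM over the 6 libraries, and its 95% interval ran from 0.607-fold to 1.21-fold.

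Polycomb repressive complex 2, which methylates H3K27, was represented by 2 catalytic subunits and the core subunits EED and SUZ12. EZH1, the catalytic subunit typical of cells that no longer divide, had 15.6 FPKM, and EZH2, typical of dividing progenitors, 1.01 FPKM. EZH1 thus made up 93.4 ± 1.5% of their sum in VPA and 94.4 ± 1.77% in controls. EZH2 had 2.99, 3.5 and 4.17 CPM in VPA 391, 392 and 393 and 4, 3.56 and 1.99 CPM in controls 401, 402 and 408. The groups overlapped, VPA 393 being the highest library and control 408 the lowest. The log2 fold change was 0.15 ± 0.275 (adjusted p = 0.840), 0.021 without VPA 393 and -0.10 without control 408. EZH1, EED and SUZ12 had log2 fold changes of -0.10, -0.10 and -0.03.

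Methyltransferases of H3K4, the mark of promoters and enhancers, stayed within narrow bounds. KMT2B had 31.3 to 32.3 CPM in VPA and 27.8 to 30.9 CPM in controls, which did not overlap (log2 fold change 0.09, adjusted p = 0.611). KMT2D (MLL4), SETD1A and SETD1B had log2 fold changes of -0.02, -0.06 and -0.08, with overlap. Among those of H3K9, EHMT2 (G9a) was abundant at 25.3 FPKM and SUV39H2 scarce at 1.28 FPKM. Log2 fold changes were 0.08 for EHMT2, -0.06 for SETDB1 and -0.12 for SUV39H2, again with overlap in all 3.

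Of the 11 demethylases, 6 had positive log2 fold changes and KDM3A alone had separate groups (background 50.5% and 21.2%). KDM3A, which removes H3K9 methylation, stood at 47.1, 48.4 and 48.1 CPM in VPA and at 40.5, 42.8 and 42.5 CPM in controls. Both groups were compact, with a gap of 4.29 CPM between them. Its log2 fold change was 0.18 ± 0.067 (unadjusted p = 0.0220, adjusted p = 0.220), and the unadjusted p was 0.0789 without control 401. KDM1A (LSD1), the H3K4 demethylase of the CoREST complex, was the most abundant of the 11 at 20.8 FPKM. It had 61.6, 62.9 and 64.5 CPM in VPA and 67.2, 64.4 and 65 CPM in controls, where VPA 393 and control 402 nearly coincided (log2 fold change -0.07 ± 0.057, adjusted p = 0.592).

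The remaining demethylases lay between -0.08 and 0.12 on the log2 scale, with overlapping groups. These were KDM1B at -0.08, KDM7A at -0.08, KDM4A at -0.05, KDM4B at -0.02 and KDM3B at 0.07. KDM4C stood at 0.09, KDM2A, which acts on H3K36, at 0.09, KDM5A, which acts on H3K4, at 0.11, and KDM2B at 0.12. BRD2, a BET protein that binds acetylated histones, had 246, 255 and 253 CPM in VPA 391, 392 and 393 and 248, 220 and 221 CPM in controls 401, 402 and 408. Control 401 fell among the exposed animals and the other 2 controls well below them (log2 fold change 0.12 ± 0.053, unadjusted p = 0.0526, adjusted p = 0.314).

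**Figure D4:**
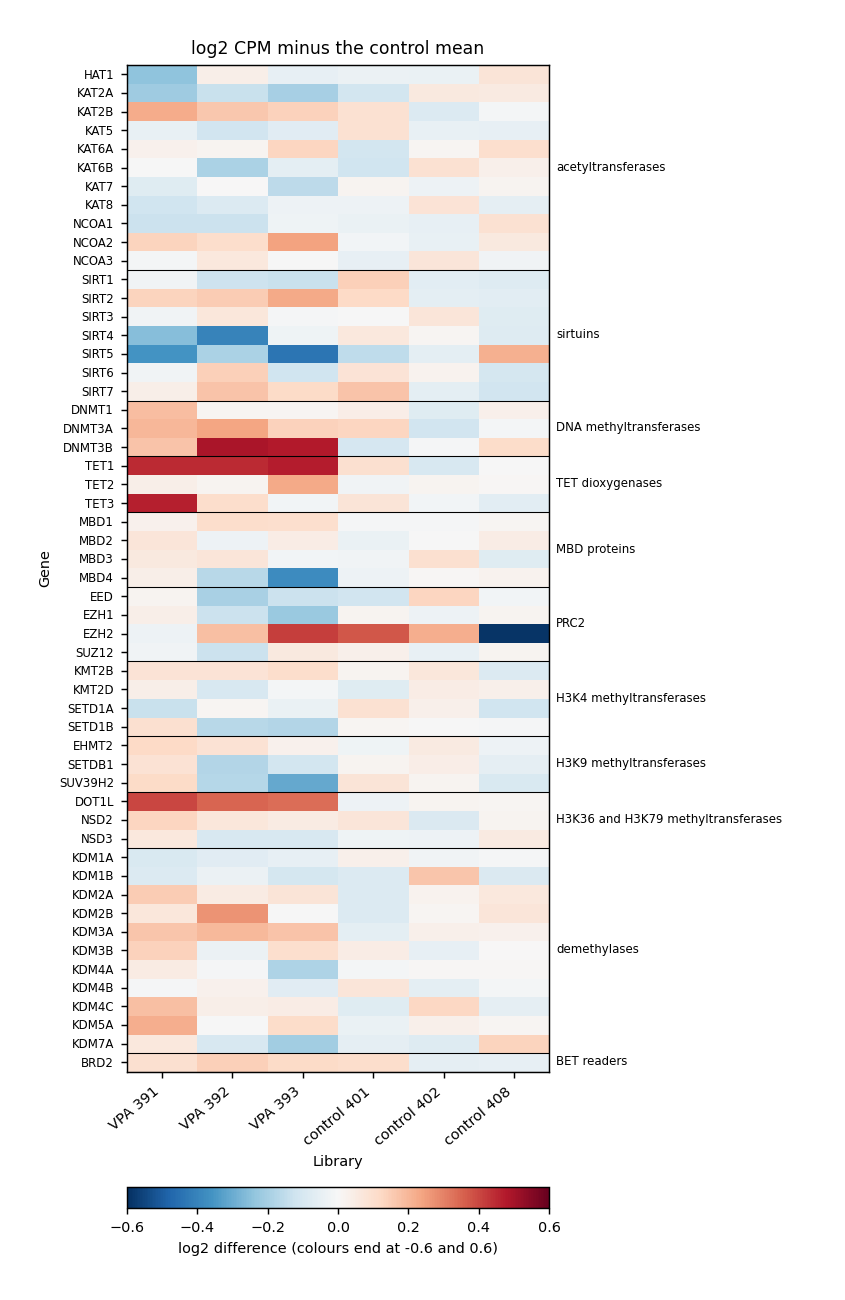
Difference of each gene's log2 CPM (TMM-scaled, with 0.1 CPM added) from the control mean, by library and role. DOT1L and TET1 are red in all 3 VPA libraries, TET3 in VPA 391 mainly, and EZH2 is lowest in control 408.

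Single libraries contributed unevenly. VPA 391 was the highest of the 6 libraries in 18 of the 54 genes (33.3%), where it was highest in 14.1% of all tested genes. The 18 included TET3, DNMT1, KDM2A, KDM5A, EHMT2, SETDB1, SETD1B and NSD3. VPA 392 and VPA 393 were highest in 9 genes each, and control 408 in 4 (7.41%, against 17.2% of all tested genes). Without VPA 391 the number of the 54 with separate groups and lower values in VPA went from 2 to 9 (16.7%), where with 2 against 3 libraries the share over all tested genes was 12.4%. At an unadjusted p under 0.05, 4 rather than 7 genes then had higher values (7.41%, background 6.71%). Without control 402 that number was 3 (background 7.16%), and 1 gene had lower values (background 6.7%). Without control 408 no gene had lower values at that level (background 5.36%).

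Without VPA 393, the library high in striatal markers, the log2 fold change moved by more than 0.05 in 13 of the 54. It shrank for EZH2, MBD4 and TET2, as given above, and for SUV39H2 (from -0.12 to -0.024), KDM7A (from -0.08 to -0.016), EZH1 (from -0.10 to -0.05), SIRT5 (from -0.34 to -0.28) and DNMT3B (from 0.42 to 0.37). It grew for SIRT4 (from -0.23 to -0.34), TET3 (from 0.20 to 0.30), KDM2B (from 0.12 to 0.17) and SIRT6 (from 0.0033 to 0.06). KDM4A went from -0.05 to 0.02, and it and KDM4B were the 2 members that changed sign. Leaving out VPA 391 moved 16 members by that much, with no change of sign.

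All 9 genes with an unadjusted p under 0.05 in edgeR kept their direction in the 4 libraries with EIF1AY counts (2 VPA and 2 control). They also kept it in the other pair (VPA 392 over control 401). Their groups did not overlap in CPM over all libraries, so this was practically fixed in advance and is no further check. In the pair of VPA 392 over control 401, the log2 ratio was 0.38 for DOT1L, 0.36 for TET1 and 0.26 for KDM3A. It was only 0.04 for SIRT2, -0.03 for SIRT5 and -0.02 for KAT2A, where the 4 other libraries gave 0.24, -0.49 and -0.27. With 1 animal on each side, the pair has no replicate check. Of the 9, DOT1L and TET1 were the 2 whose unadjusted p stayed under 0.05 with each of the 6 libraries left out in turn. TET1 then had log2 fold changes of 0.41 to 0.51. These fits reuse the libraries that picked the 9, so they are no independent check. How many of all tested genes do the same is not given here.

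**Figure D5:**
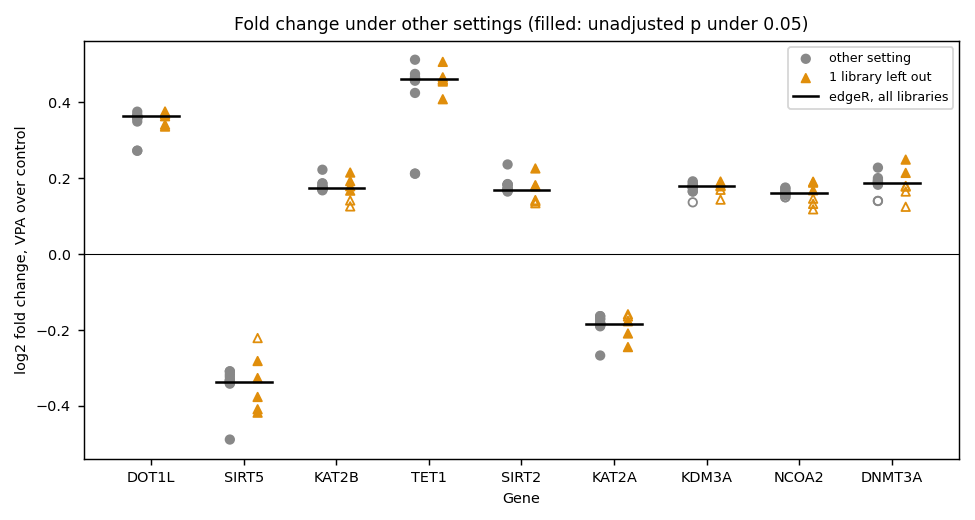
Log2 fold change of the 9 genes with all libraries in edgeR (black line), under other settings (grey) and with 1 library left out (orange), filled where the unadjusted p is under 0.05. DOT1L and TET1 are filled throughout. No gene changes sign, which the separate groups of these 9 genes largely fix in advance.

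A wider list of 119 measured chromatin genes outside the 54, among them subunits of the same complexes, had no gene past the adjusted threshold in edgeR. At an unadjusted p under 0.05, 8 were higher and 5 lower in VPA, 10.9% in all against 16.2% of all tested genes. The groups did not overlap in 12 with higher and 13 with lower values (21%, background 21.2%), and the median log2 fold change was -0.0082. YEATS2, a histone acylation reader of the ATAC complex, which can contain KAT2A or KAT2B, had 55.4 ± 1.54 CPM in VPA and 44.9 ± 1.66 CPM in controls (adjusted p = 0.0773). SUPT7L, a subunit of the KAT2A-containing SAGA complex, had 23.8 ± 0.950 CPM in VPA and 29.3 ± 1.26 CPM in controls (adjusted p = 0.0971). In both genes the groups did not overlap, and both were picked for having among the lowest p of the 119. Other measured subunits of these complexes had overlapping groups. Their log2 fold changes were -0.06 for TADA2A, 0.14 for TADA2B, -0.01 for TADA3, -0.02 for SGF29, -0.05 for KAT14 and 0.12 for TRRAP.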

How the data were processed

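Total RNA was isolated with TRIzol and libraries were prepared using a VAHTS Universal V6 kit, per the labels' protocols. Not given in the sources used here are RNA selection, strandedness, the genome build, its annotation, and the aligner and counter, so reads of overlapping genes cannot be separated and no coordinates are printed. The authors deposited raw counts and FPKM per gene for each library; both list 17201 genes, 24 of them with names turned into dates, which were kept in library sizes. Gene lengths were recovered from count and FPKM (the same in all libraries, tolerance 0.001). CPM used each file's total. No 2 libraries agreed within sampling noise (chi-square per degree of freedom 5.91 to 13.2 over 15 pairs).

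Counts were tested in R 4.3.3 with edgeR 4.0.16: filterByExpr (14373 genes kept, among them all 54 members with a row), TMM (factors 0.993 to 1.01), glmQLFit and glmQLFTest, 4 residual degrees of freedom, two-sided, Benjamini-Hochberg, threshold 0.05. Standard errors came from the F statistic. The functions were tested on simulated data. The members and lists were chosen with earlier results of these data known, so they have no set test, and p-values were adjusted over all tested genes. Per-library values are given for members with an unadjusted p under 0.05, the highest and lowest in FPKM, and 8 fixed members; others were named after their values were seen. One gene of the wider chromatin list is not reported here. The p-values measure the spread between these animals, whose litters are not given.

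Alternatives were other scaling, other filters, DESeq2 1.42.0, limma 3.58.1 (voom, and log2 FPKM with pseudocounts of 1 and 0.1, for a mean of at least 0.5 FPKM or all genes), EIF1AY presence as a covariate, and each library left out. The 4 libraries with EIF1AY alone were added after seeing the data.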

Additional observations from a re-analysis of the deposited data

How the results depend on the processing

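No member passed the adjusted threshold under any of 18 alternatives. No paired analysis was possible because the animal numbers are not shared between groups. The signs of all 54 members were the same under RLE, upper-quartile and library-size scaling. Over all genes, 52 calls became 141 with no filter, 444 with DESeq2, 30 with limma-voom, 2 with limma on log2(FPKM + 1) or log2(FPKM + 0.1), 1 without its filter, 0 in the 4 libraries with EIF1AY, and 0 to 66 with 1 library left out. In those 4 libraries, 21 members had separate groups with higher and 4 with lower values in VPA (11 and 2 in all libraries), or 38.9 and 7.41% against 25.5 and 19% of all tested genes there, and RLE scaling gave 4 lower.

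With 1 library left out, members at an unadjusted p under 0.05 numbered 3 to 6 higher and 0 to 3 lower. Over all tested genes, 6.57 to 8.93% were higher and 5.31 to 8.27% lower at that level. Members with separate groups numbered 12 to 16 higher (22.2 to 29.6%) and 3 to 9 lower (5.56 to 16.7%). Over all tested genes these shares were 16.5 to 20.1% and 12.4 to 15.9%. Median log2 fold changes then ran from -0.01 to 0.024 over all members, -0.081 to -0.045 for acetyltransferases, -0.072 to 0.024 for sirtuins, 0.12 to 0.25 for DNA methyltransferases, 0.12 to 0.30 for TET dioxygenases, -0.10 to -0.019 for polycomb repressive complex 2, -0.046 to -0.012 for H3K4 and -0.15 to -0.010 for H3K9 methyltransferases, 0.012 to 0.044 for MBD proteins, 0.031 to 0.11 for H3K36 and H3K79 methyltransferases and 0.028 to 0.059 for demethylases (0.07 with all libraries). In the 4 libraries with EIF1AY the medians were -0.0076 over all members, 0.12 for H3K36 and H3K79 methyltransferases and -0.0074 for demethylases. The DNA methyltransferase median, 0.19 over all libraries, was 0.13 with a mean of at least 1 CPM, 0.11 with limma on log2(FPKM + 1) and 0.079 without its filter. EZH2 turned to -0.10 without control 408 and ran up to 0.34 with other libraries left out. DOT1L and TET1 had an unadjusted p under 0.05 in all 18 alternatives, with adjusted p from 0.0686 to 0.232 and from 0.174 to 0.378. The alternatives reuse the same libraries, and no share over all tested genes is given for this. Except where fewer genes or samples entered, the cause of these shifts was not tested. Counts were fewest for TET1, DNMT3B, SIRT4, SUV39H2 and EZH2, and EZH2 also varied widely between controls, at 1.99 to 4 CPM.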
